A study of Mus musculus with 6 samples.

Results

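The genes described here are 10 mouse genes of MHC class II antigen presentation: H2-Aa, H2-Ab1, H2-Eb1, H2-DMa, H2-DMb1, H2-Oa, H2-Ob, Cd74, Ciita and Ctss. They were taken from an array comparison of colonic epithelium of miR-31 knockout and wild-type mice, and every non-control probe whose RefSeq accession maps to one of these symbols was kept. This gave 16 probes among 56605, of which 14 probes of 9 genes were among the 33231 probes tested. Colonic epithelium of 3 male miR-31 knockout mice was compared with that of 3 male wild-type mice, each on its own Agilent one-colour array. The epithelium was collected into TRIzol by flow separation. No strain, age, gate or method of knockout is given in the sources used here, and the loss of miR-31 itself was not checked. The 6 sample titles carry 6 different numbers, read here as animals; if they are not, the p-values measure technical spread only.

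MHC class II molecules are cell-surface heterodimers of an alpha and a beta chain that show peptides from endosomes to CD4+ T cells. The invariant chain, encoded by Cd74, guides new heterodimers to endosomes, where cathepsin S (Ctss) trims it to a short remnant, H2-DM exchanges this remnant for peptide, and H2-DO restrains H2-DM. B cells, dendritic cells and macrophages express these genes constitutively, while intestinal epithelial cells switch them on under interferon gamma through Ciita, the class II transactivator. Ciita acts through a protein complex bound at the X and Y boxes of class II promoters.

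Stretches of the promoters of 6 members are shown because the rule for choosing the genes did not use their sequence. H2-Eb1, H2-Oa and H2-Ob hold both the X and the Y box letters. By exact match, H2-Aa and H2-DMb1 hold only those of the Y box, and Ctss holds neither. Boxes that differ from these letters were not searched for, so an X box or Y box may be present where none is marked. They are RefSeq sequence of GRCm38.p6 in the direction of the gene, from 110 to 11 bases before the annotated start. Capitals mark the Y box core GATTGG or its reverse complement, the X box letters AGCAAC, and in Ctss the interferon response element (TTTC, 2 bases of any kind, TTTC) as its reverse complement.
H2-Aa (chr17:34287834-34287933, minus strand): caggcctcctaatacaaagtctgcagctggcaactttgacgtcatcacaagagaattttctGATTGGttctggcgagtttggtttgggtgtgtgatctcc
H2-Eb1 (chr17:34305757-34305856, plus strand): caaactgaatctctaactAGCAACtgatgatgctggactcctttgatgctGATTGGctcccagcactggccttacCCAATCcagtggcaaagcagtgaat
H2-DMb1 (chr17:34153081-34153180, plus strand): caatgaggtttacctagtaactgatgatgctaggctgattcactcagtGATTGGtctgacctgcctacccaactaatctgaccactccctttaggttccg
H2-Oa (chr17:34092269-34092368, plus strand): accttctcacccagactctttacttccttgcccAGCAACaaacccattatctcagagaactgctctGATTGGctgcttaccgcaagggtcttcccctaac
H2-Ob (chr17:34238795-34238894, plus strand): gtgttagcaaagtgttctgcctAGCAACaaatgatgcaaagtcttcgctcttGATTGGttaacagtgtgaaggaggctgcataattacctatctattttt
Ctss (chr3:95526676-95526775, plus strand): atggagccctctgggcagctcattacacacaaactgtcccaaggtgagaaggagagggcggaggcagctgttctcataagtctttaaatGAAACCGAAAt

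Over the whole 300-base windows, both strands searched, the Y box core was found in 6 of 8 windows of 7 members and in 16.1% of all 32851 promoter windows. In H2-Aa, H2-DMb1, H2-Eb1, H2-Oa and H2-Ob it began on the gene strand between 62 and 44 bases before the start. H2-Eb1 held another on the opposite strand, 35 to 30 bases before the start, and H2-DMa held it only in the window of its second annotated start, 199 bases before that start. The letters AGCAAC stood 20 to 40 bases before the Y box core in H2-Eb1, H2-Oa and H2-Ob, an arrangement present in 0.0578% of all windows; this spacing was chosen after the members' windows had been read. The letters AGCAAC alone were in 14.8% of all windows. The Ctss window held the interferon response element, as did 3.44% of all windows. These matches are descriptions of letters and not of bound sites. H2-Ab1, Cd74 and Ciita were not analysed in this respect. The deleted microRNA, miR-31, is encoded at chr4:88910614-88910635 (minus strand) for its 5p arm, shown with the seed in capitals.
mmu-miR-31-5p: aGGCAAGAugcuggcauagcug

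Each array had 66.6% to 75.6% of its probes well above background and a 75th percentile signal of 3005 to 3539. Values below are log2 signals relative to the 75th percentile of their array, so that 0 is the signal at that percentile and 1 unit is a 2-fold difference. Levels of different probes cannot be set against each other. Changes are knockout minus wild type, tested with limma across all 33231 probes, with Benjamini-Hochberg adjustment over the whole set. At the threshold of 0.05 after adjustment, 49 of them (0.147%) were higher in the knockout and 20 (0.0602%) were lower. The median log2 change of all tested probes was -0.06. Markers of colonic epithelium were present on every array: all 14 listed genes, Epcam, Krt8, Vil1 and Cdx2 among them, were well above background on all 6 arrays.

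The class II genes fell into a group with higher mean signal in knockout epithelium and a group with little difference. The alpha and beta chain genes, the invariant chain gene Cd74 and the transactivator gene Ciita had log2 changes between 0.75 and 2.46, H2-DMb1 and H2-DMa had 0.75 and 0.37, and H2-Oa and H2-Ob lay near 0. In these bulk samples, fewer cells of a type and less RNA per cell cannot be told apart. No member probe passed the test in either direction (0 of 14 at an adjusted p under 0.05, with a lowest adjusted p of 0.330). At an unadjusted p under 0.05, 5 of the 14 tested probes were higher, against 3.27% of all tested probes, and 0 were lower, against 7.25%. The median change of the 14 probes was 1.05 on the log2 scale, and 13 were above 0, against 39.2% of all tested probes. Of these probes 7 had a log2 change of at least 1, against 1.12% of all tested probes, but 4 of those 7 measure H2-Ab1 alone. For 4 probes, of H2-Aa, Cd74 and Ciita (both probes), all measured knockout arrays lay above all wild-type arrays, against 5.75% of all tested probes. The opposite order was found for 1 H2-Ob probe, against 12.2% of all tested probes. Read by 1 probe each, 8 of 9 tested genes had a change above 0, against 42.9% of all genes. At an unadjusted p under 0.05, 4 of the 9 were higher, against 3.4%, and 0 were lower, against 5.78%. For 3 genes all measured knockout arrays lay above all wild-type arrays, against 6.7%, and for 1 below, against 10.3%.

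The wild-type arrays lay far apart from each other in most of these genes, with replicate 3 highest and replicate 2 lowest in the mean. This bears on each value that follows. The mean centred log2 signal over 8 member genes was 0.10, 0.48 and 0.56 in knockout replicates 1 to 3, and -0.41, -1.0 and 0.28 in wild-type replicates 1 to 3. H2-Aa and Ctss were left out of this mean because some of their spots were marked. The third wild-type array thus lay between the knockout arrays, and the second was the lowest of all 6. Wild-type replicate 3 was the highest wild-type array for 11 of the 14 tested probes, and wild-type replicate 2 the lowest for 11. Several of these probes read the same gene, and the share over all tested probes was not counted.

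**Figure D1:**
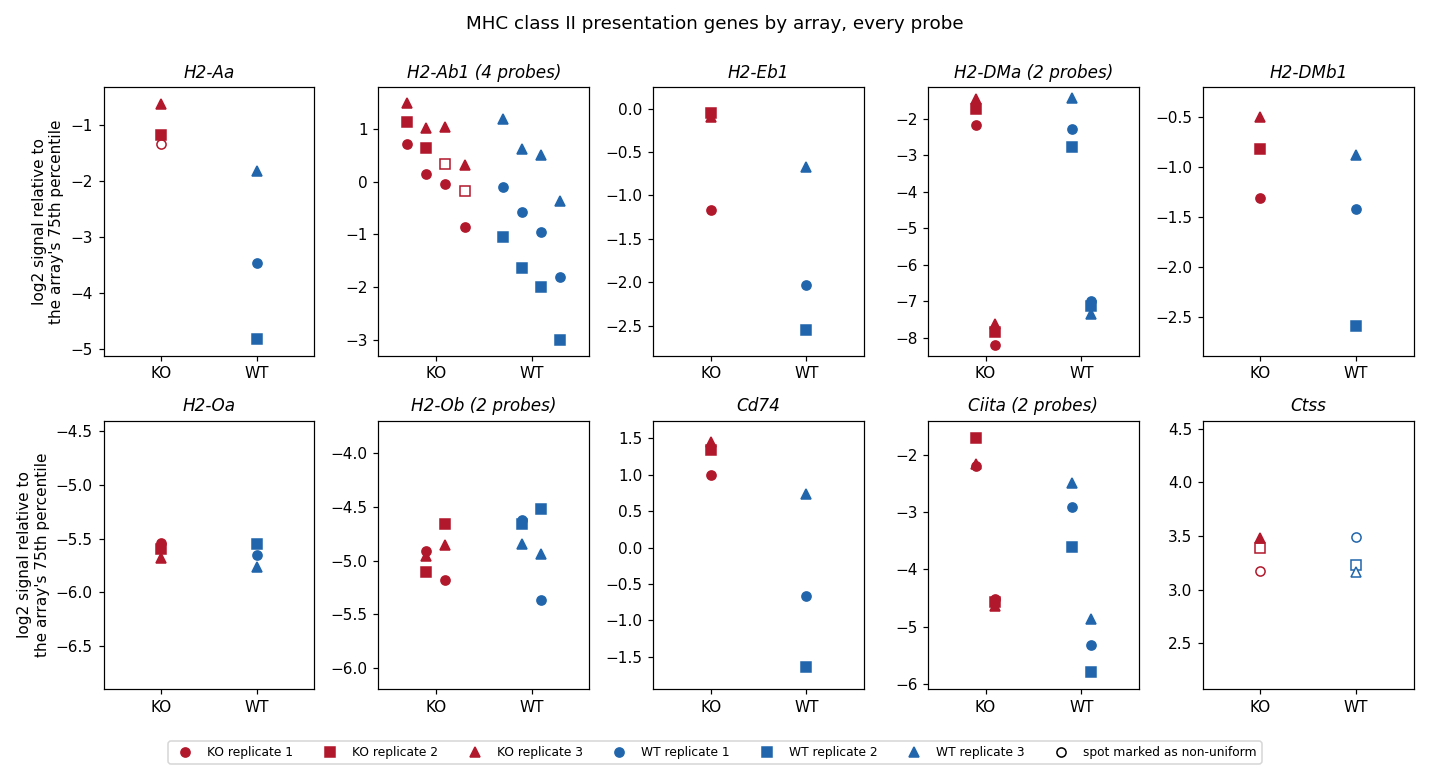
Log2 signal relative to the 75th percentile of the array (vertical axis) of every probe of the 10 genes, in knockout (KO, left, red) and wild-type (WT, right, blue) arrays; marker shape gives the replicate and open markers are spots marked as non-uniform. Each panel has its own axis, of at least 2.5 log2 units. The triangles of WT replicate 3 lie at or near the KO values for H2-Ab1, H2-Eb1, H2-DMa and H2-DMb1, and below them for H2-Aa, Cd74 and Ciita.

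H2-Aa encodes the alpha chain of the H2-A heterodimer. Its log2 signal was -1.34, -1.19 and -0.64 in knockout replicates 1 to 3, and -3.47, -4.81 and -1.83 in wild-type replicates 1 to 3. All knockout arrays lay above all wild-type arrays, and the lowest knockout value exceeded the highest wild-type value by 0.49. The spot of knockout replicate 1 was marked as non-uniform and left out of the test, which gave 2.46 ± 0.81 as the change (SE, n = 2 and 3; 95% interval 0.48 to 4.44; adjusted p = 0.387). With the marked spots kept the change was 2.32.

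H2-Ab1 encodes the beta chain that pairs with H2-Aa, and 4 probes measured it. The first had log2 signals of 0.72, 1.14 and 1.49 in knockout replicates 1 to 3, and -0.11, -1.06 and 1.18 in wild-type replicates 1 to 3. Wild-type replicate 3 lay above the first and second knockout arrays, so the groups overlapped. The change of this probe was 1.11 ± 0.53 (SE, n = 3 and 3; 95% interval -0.14 to 2.36; adjusted p = 0.525), and those of the other probes were 1.14 ± 0.54, 1.31 ± 0.73 and 1.45 ± 0.77, the last 2 with 2 unmarked knockout arrays. The 4 probes read the same transcript and are not replicates of the genotype. After centring each probe, they differed on a single array by 0.05 to 0.40 log2 units, while their mean spanned 0.98 over the knockout arrays and 2.41 over the wild-type arrays.

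H2-Eb1 encodes the beta chain of the H2-E heterodimer. Its log2 signal was -1.17, -0.05 and -0.10 in knockout replicates 1 to 3, and -2.04, -2.55 and -0.68 in wild-type replicates 1 to 3. Wild-type replicate 3 exceeded knockout replicate 1. The log2 change was 1.31 ± 0.52 (SE, n = 3 and 3; 95% interval 0.10 to 2.53; adjusted p = 0.442).

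Cd74, the invariant chain gene on chromosome 18, had log2 signals of 0.99, 1.34 and 1.44 in knockout replicates 1 to 3, and -0.67, -1.64 and 0.73 in wild-type replicates 1 to 3. The knockout arrays lay together above every wild-type array. The SD was 0.24 over the knockout arrays and 1.19 over the wild-type arrays. The change was 1.78 on the log2 scale, a 3.44-fold difference of the means (SE 0.54, n = 3 and 3; 95% interval 0.50 to 3.06; adjusted p = 0.334).

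Ciita, on chromosome 16, was measured by a pair of probes. The first had log2 signals of -2.19, -1.69 and -2.15 in knockout replicates 1 to 3, and -2.90, -3.60 and -2.49 in wild-type replicates 1 to 3. The second had -4.52, -4.58 and -4.63 in knockout replicates 1 to 3, and -5.32, -5.79 and -4.87 in wild-type replicates 1 to 3. On both probes the groups did not overlap and wild-type replicate 2 was the lowest array. The log2 changes were 0.99 ± 0.29 (95% interval 0.29 to 1.68; adjusted p = 0.330) and 0.75 ± 0.23 (95% interval 0.22 to 1.29; adjusted p = 0.333), each with SE and n = 3 and 3.

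The peptide exchange factor H2-DM is made of H2-DMa and H2-DMb1. H2-DMb1 had log2 signals of -1.31, -0.82 and -0.50 in knockout replicates 1 to 3, and -1.42, -2.59 and -0.88 in wild-type replicates 1 to 3, with a change of 0.75 ± 0.43 (SE, n = 3 and 3; 95% interval -0.27 to 1.78; adjusted p = 0.597). H2-DMa had -2.17, -1.74 and -1.48 in knockout replicates 1 to 3, and -2.28, -2.78 and -1.44 in wild-type replicates 1 to 3, with a change of 0.37 ± 0.35 (95% interval -0.45 to 1.20; adjusted p = 0.760). In both genes wild-type replicate 2 was lowest and the other arrays overlapped. A second H2-DMa probe, designed on a predicted transcript, was not well above background on any array, at -7.62 to -8.20 in knockout and -7.01 to -7.36 in wild-type arrays, and was not tested.

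The H2-DO genes, H2-Oa and H2-Ob, encode the modulator of H2-DM and are known mainly from B cells and thymic epithelium. H2-Oa had log2 signals of -5.54, -5.60 and -5.67 in knockout replicates 1 to 3, and -5.66, -5.55 and -5.76 in wild-type replicates 1 to 3. The groups overlapped and the change was 0.05 ± 0.12 (SE, n = 3 and 3; 95% interval -0.23 to 0.33; adjusted p = 0.919). The H2-Ob probes had changes of -0.28 ± 0.13 (95% interval -0.58 to 0.01; adjusted p = 0.494) and 0.04 ± 0.24 (95% interval -0.53 to 0.62; adjusted p = 0.969). On the first of them all knockout arrays, at -4.91, -5.11 and -4.96, lay below the wild-type arrays, at -4.62, -4.66 and -4.84, and on the other the groups overlapped, so the direction of H2-Ob depends on the probe. Both genes were well above background on all 6 arrays but dim, H2-Oa most of all. The lowest signal that counted as well above background lay between -7.13 and -6.12 over the arrays. An effect of the low signal on the size of these changes was not tested. Both promoters carry the X and Y box letters shown above.

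Ctss, on chromosome 3, encodes cathepsin S. Its single probe was marked as non-uniform on 5 of the 6 arrays and was therefore not tested. Its log2 signal was 3.17, 3.39 and 3.48 in knockout replicates 1 to 3, and 3.49, 3.23 and 3.16 in wild-type replicates 1 to 3, and the groups overlapped. With the marked spots kept the change was 0.05 ± 0.15 (SE, n = 3 and 3; adjusted p = 0.935).

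**Figure D2:**
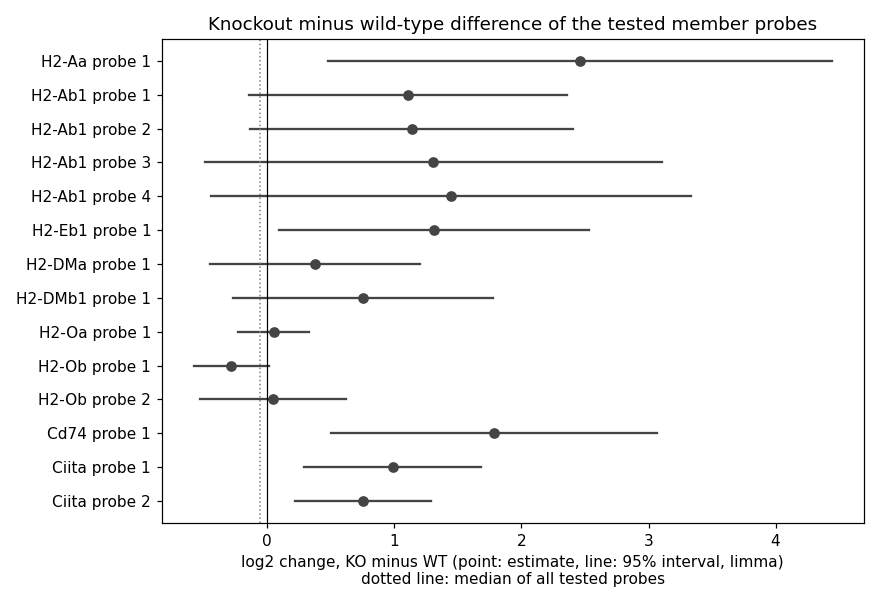
Log2 change (horizontal axis, knockout minus wild type) of the 14 tested member probes, with the 95% interval from limma as a line; the dotted line is the median of all tested probes. The intervals of H2-Aa, H2-Eb1, Cd74 and both Ciita probes lie above 0, and that of H2-Oa runs from -0.23 to 0.33.

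The spread between animals was wider among wild-type than among knockout mice for all 14 tested probes, against 47.8% of all tested probes. For H2-Aa the 3 knockout arrays spanned a 1.63-fold range and the 3 wild-type arrays a 7.87-fold range. The wild-type range was at least 2 log2 units for 6 member probes, of H2-Aa, H2-Ab1 and Cd74, and for 0.725% of all tested probes. This difference in spread was not tested. For H2-Aa and Cd74 the wild-type range, at 2.98 and 2.37 log2 units, was wider than the difference between the groups.

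Leaving out single arrays showed how far the changes rest on wild-type replicates 2 and 3. Without wild-type replicate 3, the log2 change was 2.41 ± 0.31 for Cd74, 3.23 ± 0.49 for H2-Aa, 1.85 ± 0.39 for H2-Eb1, 1.70 ± 0.35 for the first H2-Ab1 probe and 1.24 ± 0.27 for the first Ciita probe (SE). Then 11 of 14 probes were higher at an unadjusted p under 0.05, against 4.5% of all tested probes, and 11 had no overlap with knockout above wild type, against 11.9%. None passed after adjustment even so, with a lowest adjusted p of 0.0760 for Cd74. The first H2-Ob probe went the other way without wild-type replicate 3, with a log2 change of -0.35 ± 0.13 (SE). It was lower in the knockout at the same unadjusted threshold. Its knockout arrays lay below both remaining wild-type arrays, an order seen for 28.1% of all tested probes in that fit. Without wild-type replicate 2, the changes were 1.23 for Cd74, 1.74 for H2-Aa and 0.58 for the first H2-Ab1 probe, and H2-DMa and H2-DMb1 stood at 0.07 and 0.27. With knockout replicate 1, 2 or 3 or wild-type replicate 1 left out, the change of Cd74 stayed between 1.69 and 1.92.

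**Figure D3:**
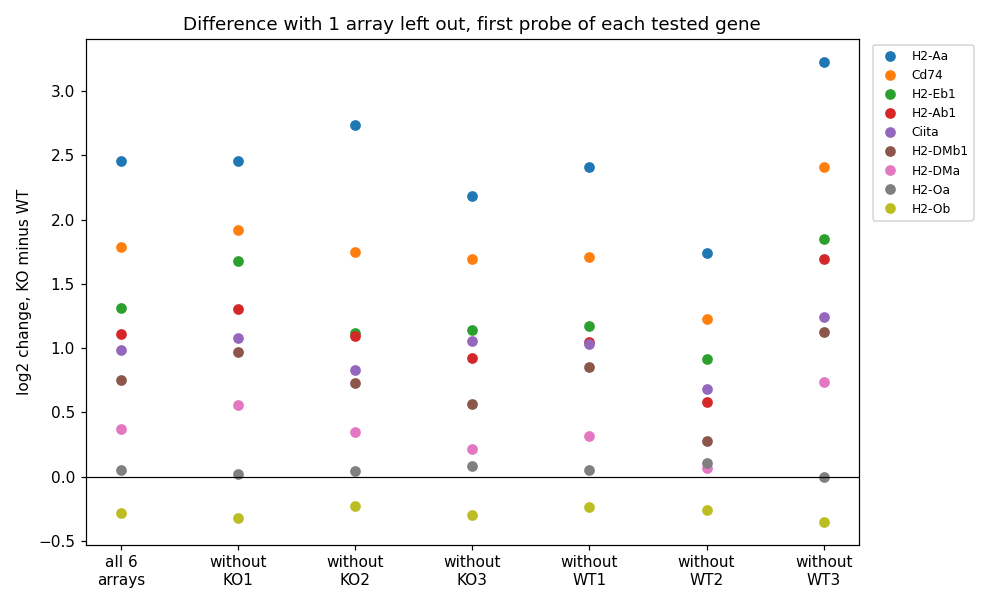
Log2 change (vertical axis, knockout minus wild type) of the first probe of each of the 9 tested genes, with all 6 arrays and with each array left out in turn (horizontal axis). Removing WT replicate 3 raises H2-Aa to 3.23 and Cd74 to 2.41, removing WT replicate 2 lowers them to 1.74 and 1.23, and H2-Oa and H2-Ob move little.

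The numbers in the sample titles place wild-type replicate 3 and knockout replicate 3 outside the run that holds the other 4 mice, and what the numbers stand for is not given. Among those 4 mice alone, a comparison chosen after the data were seen, 9 of 14 probes were higher at an unadjusted p under 0.05, against 5.81% of all probes tested. For 11 both knockout arrays lay above both wild-type arrays, against 17.8%, and 0 passed after adjustment. With the number series as a block in the fit of all 6 arrays, 9 of 14 probes were higher at an unadjusted p under 0.05. The share over all tested probes was 3.99% with that block, and the lowest adjusted p of the members was 0.213 (limma). That block sets knockout replicate 3 against wild-type replicate 3 because both lie outside the run, although their numbers differ and no label ties them together. All arrays lay on a single slide, with the knockout arrays in one row and the wild-type arrays in the other, so slide row and genotype cannot be told apart. Knockout and wild-type replicate 1 shared a slide column, as did both replicates 2, while each replicate 3 was alone in its column. With the column as a block, which therefore rests on the same 4 arrays, 11 member probes could be fitted. Of these, 6 were higher at an unadjusted p under 0.05, against 6.38% of all probes fitted. The change of Cd74 was 2.32, with an adjusted p of 0.0691 (limma). Within the columns, Cd74 was higher in the knockout by 1.66 and 2.98, the first Ciita probe by 0.71 and 1.91, and H2-Eb1 by 0.86 and 2.49. H2-DMa stood at 0.11 and 1.04, H2-Oa at 0.12 and -0.05, and the first H2-Ob probe at -0.29 and -0.45. These differences rest on 1 array per group and have no test. The median member difference was 0.72 over 13 unmarked probes in the first column and 1.84 over 12 in the second. The medians over all probes were -0.13 and -0.06.

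Factors that act on class II promoters together with Ciita showed little difference between the groups. Of 10 listed genes 8 were tested, 0 passed in either direction, and their changes ran from -0.06 to 0.14 with a median of 0.01. Rfx5, a subunit of the complex that binds the X box, stood at -0.06 ± 0.16 (SE, n = 2 and 2) and at -0.30 on its other probe, and Nfya, a subunit of the factor that binds the Y box, at 0.02 ± 0.15 (n = 3 and 2). Creb1, a factor of the same assembly, had 0.14 ± 0.16 (n = 2 and 2) and the coactivator gene Ep300 0.06 ± 0.16 (n = 2 and 3).

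Interferon gamma and its pathway were examined because they induce Ciita. Of 16 listed genes 13 were tested and 0 passed, with a median log2 change of 0.08, and 1 was higher at an unadjusted p under 0.05, against 3.4% of all genes, each read by 1 probe. Cxcl9, an interferon gamma-induced chemokine, had a change of 1.33 ± 0.52 (SE, n = 3 and 3; adjusted p = 0.443). Its log2 signal was -3.75, -3.72 and -3.00 in knockout replicates 1 to 3, and -4.93, -5.85 and -3.68 in wild-type replicates 1 to 3, so that wild-type replicate 3 again lay above the first 2 knockout arrays. Ifng itself had a change of -0.46 ± 0.28, Socs1, an inhibitor of its signalling, one of 0.38 ± 0.21 and Il22, a lymphoid cytokine acting on epithelium, one of -0.28 ± 0.12 (n = 3 and 3).

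Other class II genes and the enzymes of peptide supply were mixed. Of 12 listed genes 11 were tested and 0 passed, 7 had a change above 0, against 42.9% of all genes, and the median was 0.01. At an unadjusted p under 0.05, 1 was higher and 1 lower, the lower call against 5.78% of all genes. H2-DMb2, a close paralogue of H2-DMb1, had a log2 change of 0.61 ± 0.31 (n = 3 and 3), and signal shared between the pair was not tested. H2-DMb2 was dim, and well above background on only 2 knockout and 2 wild-type arrays. Lgmn, an endosomal protease, had 0.48 ± 0.16 (n = 2 and 2) and Ctsl, cathepsin L, 0.28 ± 0.19 (n = 3 and 3). The marked Lgmn spots left out of the test were at 0.20 in knockout replicate 1 and 0.61 in wild-type replicate 2. With them the groups overlapped. Marchf8, a ubiquitin ligase that takes class II molecules from the cell surface, had -0.64 ± 0.18 (n = 3 and 3; adjusted p = 0.319), with knockout below wild type on all arrays, an order seen for 10.3% of all genes, while its other probe gave -0.11.

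The position of the genes was compared because H2-Oa, H2-DMa, H2-DMb1, H2-Ob, H2-Ab1, H2-Aa and H2-Eb1 lie together on chromosome 17. In RefSeq gene order, 14 protein-coding genes run from H2-Oa to H2-Eb2, 7 of them members, and 6 of the other 7 were tested. These 6 had changes from -0.11 to 0.61, the highest being that of the dim H2-DMb2, with a median of 0.21, and 0 passed. Tap1 and Tap2, which encode the peptide transporter of class I presentation and lie between H2-DMb1 and H2-Ob, had changes of 0.33 ± 0.36 (n = 3 and 2) and 0.29 ± 0.20 (n = 3 and 3), with other probes at 0.57 and 0.87.

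**Figure D4:**
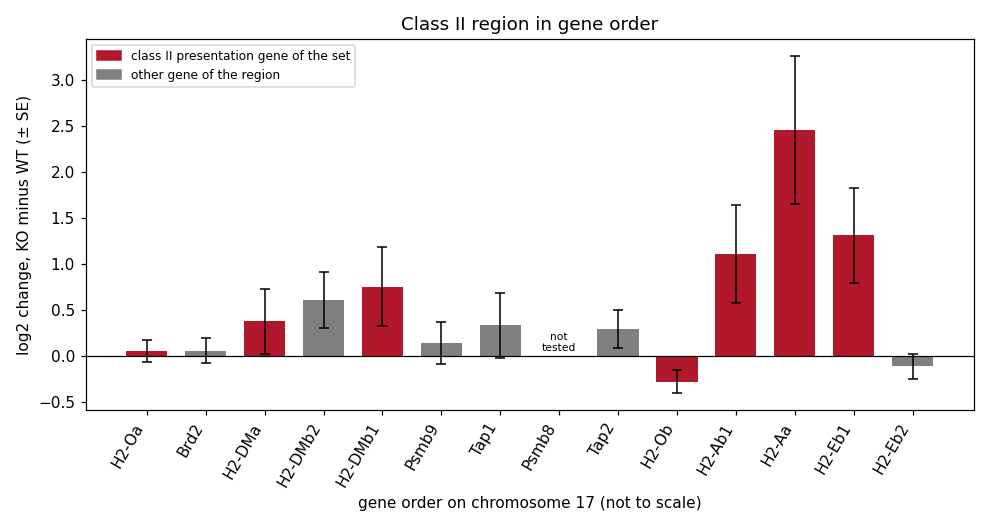
Log2 change (vertical axis, knockout minus wild type, ± SE from limma) of genes of the class II region in their order on chromosome 17 (horizontal axis, not to scale), with members of the class II set in red and other genes in grey. H2-Aa stands at 2.46, its neighbours H2-Ab1 and H2-Eb1 at 1.11 and 1.31, and the class I transporter genes Tap1 and Tap2 at 0.33 and 0.29.

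Because B cells, dendritic cells and macrophages carry class II molecules, their markers were read beside these values. For each list the mean centred log2 signal gives every gene the same weight, while the summed level, in multiples of the 75th percentile signal, is set mostly by the brightest probes and does not rank genes by abundance. Of 10 dendritic cell markers, 5 were well above background on at least 3 arrays, and the defining genes Xcr1, Clec9a and Cd209a were not well above background on any array. The 4 tested had a median log2 change of 0.02, with 0.18 ± 0.35 for Itgax, 0.19 ± 0.16 for Siglech, -0.14 ± 0.29 for Ccr7 and -0.25 ± 0.13 for Zbtb46. Ccr7 was well above background on only 1 knockout and 2 wild-type arrays, and Zbtb46 on 2 and 3. The mean centred signal of the list was -0.05, 0.03 and 0.00 in knockout replicates 1 to 3, and 0.09, -0.24 and 0.16 in wild-type replicates 1 to 3. The groups overlapped, with wild-type replicate 2 lowest. The summed level ranged from 13.8 to 15.1 in knockout and from 8.89 to 17.4 in wild-type arrays, of which Cd24a, a gene that epithelium also expresses, gave 57.7% to 73.1%.

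Of 12 macrophage and monocyte markers, 8 were tested, with a median log2 change of -0.13. The complement genes differed among themselves: C1qa had 0.78 ± 0.30, while C1qb had -0.53 ± 0.13 and C1qc -1.15 ± 0.44 (n = 3 and 3), and C1qc was well above background on only 1 knockout array. Mrc1, the mannose receptor gene, had -0.68 ± 0.29, and Cd163 was not well above background on any array. The mean centred signal of the list was -0.40, -0.08 and 0.21 in knockout replicates 1 to 3, and 0.03, 0.10 and 0.14 in wild-type replicates 1 to 3. Knockout replicate 1 was lowest and knockout replicate 3 highest. The summed level ranged from 13.4 to 18.6 in knockout and from 14.4 to 16.5 in wild-type arrays, and Ly6c2 gave 61.3% to 72.0% of it.

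Of 10 B cell markers 8 were tested, with a median log2 change of 0.13. Blk, a B cell kinase, had 0.58 ± 0.23, Ms4a1, which encodes CD20, 0.88 ± 0.49, and Cr2, a complement receptor gene, -0.21 ± 0.15 (n = 3 and 3). Ms4a1 was well above background on only 2 wild-type arrays. Cd22, an inhibitory receptor gene, had -0.21 ± 0.12 on one probe and 0.15 on the other. The mean centred signal of the list was 0.04, 0.26 and -0.03 in knockout replicates 1 to 3, and -0.10, 0.22 and -0.38 in wild-type replicates 1 to 3. The groups overlapped, and the replicates 2 were the highest of each group. The summed level ranged from 3.58 to 3.81 in knockout and from 3.73 to 4.51 in wild-type arrays, but Cd22 alone gave 91.8% to 94.1% of it.

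The 6 plasma cell markers had a median log2 change of 0.26, and one of 0.06 over the 5 that were well above background on all 6 arrays. Their mean centred signal was -0.02, 0.27 and 0.18 in knockout replicates 1 to 3, and -0.24, -0.06 and -0.13 in wild-type replicates 1 to 3. In this mean all knockout arrays lay above all wild-type arrays. The mean includes Jchain, the gene with the largest change of the list, and was not read without it. Jchain, the joining chain of IgA and IgM, had a change of 1.20 ± 0.24 (n = 3 and 3; adjusted p = 0.195), with knockout above wild type on all arrays, an order seen for 6.7% of all genes. Derl3, a gene of the secretory pathway, had 0.51 ± 0.26, Irf4, a plasma cell transcription factor gene, 0.46 ± 0.21 and Mzb1 -0.13 ± 0.16. Irf4 was well above background on only 2 knockout and 2 wild-type arrays. The summed level, at 3.11 to 4.01 in knockout and 3.40 to 4.69 in wild-type arrays, overlapped, and Sdc1 gave 91.9% to 95.8% of it.

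All 8 pan-leukocyte markers were tested, with a median log2 change of 0.13. Their mean centred signal was -0.26, 0.16 and 0.42 in knockout replicates 1 to 3, and -0.09, -0.43 and 0.19 in wild-type replicates 1 to 3. Wild-type replicate 2 was thus lowest here too and wild-type replicate 3 the highest wild-type array, as for class II, whereas knockout replicate 1 lay below the first wild-type array. Cytip, a leukocyte adaptor gene, had 0.75 ± 0.22 (n = 2 and 2), and 0.07 on its other probe. Laptm5 had 0.37 ± 0.22, Cd53 0.26 ± 0.28 and Coro1a 0.15 ± 0.23. The summed level ranged from 2.96 to 4.48 in knockout and from 2.53 to 3.97 in wild-type arrays.

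T and innate lymphoid markers had a median log2 change of 0.13 over 11 tested genes. Cd8a had 0.24 ± 0.22, Cd3e 0.20 ± 0.22 and Cd4 -0.27 ± 0.20. Their mean centred signal was -0.30, 0.02 and 0.43 in knockout replicates 1 to 3, and 0.04, -0.34 and 0.16 in wild-type replicates 1 to 3, and the summed level was 6.27 to 9.75 in knockout and 5.32 to 8.86 in wild-type arrays. No marker of these immune cell lists passed in either direction, and their part in the class II values was not tested. The epithelial list had a median of -0.02 over 7 tested genes, with 0.20 ± 0.15 for Krt20, 0.16 ± 0.12 for Muc2, 0.16 ± 0.15 for Lgals4 and -0.07 ± 0.12 for Krt18. Its summed level was 157.4 to 175.8 in knockout and 162.6 to 183.2 in wild-type arrays.

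**Figure D5:**
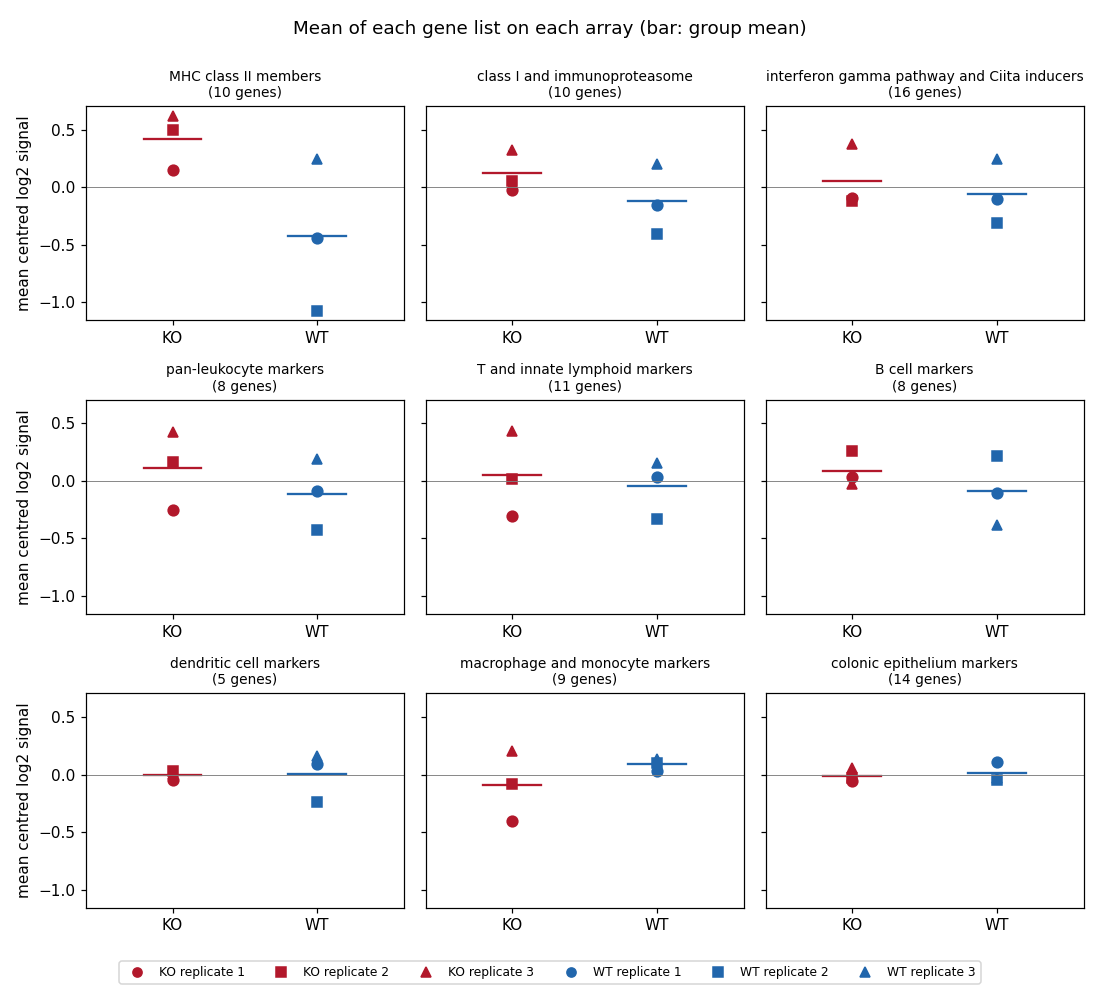
Mean centred log2 signal (vertical axis) of 9 gene lists on each knockout (KO, left, red) and wild-type (WT, right, blue) array, with a bar at the group mean; 0 is midway between the group means of each gene. The class II genes, here all 10 with marked spots kept, range from -1.07 to 0.62. The pan-leukocyte markers range from -0.43 to 0.42 and the epithelial markers from -0.06 to 0.11.

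The class I presentation genes, which share regulators with class II, were compared last. Of 10 listed genes 5 were tested, since many of these bright spots were marked, and all 5 had changes above 0, against 42.9% of all genes, with a median of 0.18 and 0 passing. H2-K1, a class I heavy chain gene, had 0.18 ± 0.21 (n = 2 and 2) and Tapbp, the tapasin gene, 0.17 ± 0.19 (n = 3 and 2). The mean centred signal of the whole list was -0.02, 0.06 and 0.32 in knockout replicates 1 to 3, and -0.15, -0.41 and 0.20 in wild-type replicates 1 to 3, the same order of wild-type arrays as for class II.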

How the data were processed

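Per the file headers, the deposited intensity values come from Agilent Feature Extraction 11.5.1.1 (version 10.7 per the submitters' processing notes); the processed intensity is background-subtracted and not normalized between arrays. Each of 6 arrays held 59305 non-control spots for 56605 probes, and 33767 probes matched a symbol through their RefSeq accession (GRCm38.p6 table). The log2 processed intensity minus the array's 75th percentile was used. Spots marked as non-uniform or population outliers were left out (4.95% to 17.3% per array) and spots of a probe averaged. A probe was tested when well above background on at least 3 arrays and unmarked on at least 2 per group. Groups were compared with limma 3.58.1 in R 4.3.3 (two-sided, no covariate, threshold 0.05). The fit was tested on simulated data. The planned normexp alternative used the median spot signal, since the files hold no mean signal. The deposited series table held the same intensity, with 99.7% of values within 0.01 log2 units.

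Named genes are all members, up to 4 tested genes of each list with the smallest unadjusted p, and the 8 genes with the most similar profile over the arrays. Genes named beyond this rule (Epcam, Krt8, Vil1 and Cdx2 as tissue checks, markers at or near background, and the largest part of a summed level) were chosen after their values were seen. For a list gene with several probes, the tested probe with the highest mean was used. The members and lists were chosen with earlier results of these data known.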

Additional observations from a re-analysis of the deposited data

How the results depend on the processing

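No member probe passed after adjustment under any alternative that was run. The median log2 change of the member probes was positive under each, with 0.58 when wild-type replicate 2 was left out and 1.47 when the third was. The number of probes called over the whole array, 69 as reported, ranged from 31 to 217. The count of member probes higher at an unadjusted p under 0.05 was 5 as reported, against 3.27% of all tested probes. It was 3 with trend and robust variance (3.65% of all tested probes) and 9 with array weights (5.45%). It was also 9 with the animal number series as a block (3.99%) and among the 4 mice of one number run (5.81%). With 1 array left out this count ranged from 3 to 11, against 2.25% to 4.5% of all tested probes. The count without overlap ranged from 4 to 11, against 8.42% to 12.5%. It was also 11 among the 4 mice of one number run, against 17.8%. Comparing fewer arrays makes an overlap less likely. Values near 0 changed sign: H2-Oa to -0.0084 with normexp, and between -0.003 and 0.103 with 1 array left out, where the negative value came without wild-type replicate 3, and the second H2-Ob probe to -0.17 and -0.07 without the first wild-type and the second knockout array, in a range up to 0.255. Medians of the pathway and marker lists moved by more than the spread between arrays in 11 cases, without a test. With the slide column as a block, 11 member probes could be fitted on the 4 arrays that share a column. Of these, 6 were higher at an unadjusted p under 0.05, against 6.38% of all probes fitted. The lowest adjusted p of any setting, 0.0691 for Cd74 (limma), was reached there. H2-Aa, with 1 unmarked pair, could not be fitted. No paired analysis was possible because no label ties a knockout mouse to a wild-type mouse. The column fit pairs arrays by slide position only. The number of arrays and the marked bright spots limit the precision.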

Other observations

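Beyond the class II genes, genes with the most similar profile over the 6 arrays were looked up as a description. The profile was the mean of 8 member genes, and 62 of 16504 probes, 0.376%, had a Pearson r of at least 0.95 with it, members included. The 8 named genes with the highest r that are no members were Ifi27 (r = 0.994), Usp11 (0.991), Wnk2 (0.990), Ap3m2 (0.989), Irf2bpl (0.988), Ifi204 (0.988), Irf7 (0.980) and Zswim9 (0.980). Ifi27, Ifi204 and Irf7 are interferon-inducible genes. Irf7, which encodes a transcription factor of the interferon response, had log2 signals of 3.08, 3.24 and 3.46 in knockout replicates 1 to 3, and 2.55, 2.22 and 3.35 in wild-type replicates 1 to 3, so wild-type replicate 3 lay above the first 2 knockout arrays. Ifi204, which encodes an interferon-inducible DNA-binding protein, had a change of 1.66 ± 0.78 (SE, n = 3 and 3) and Irf7 one of 0.56 ± 0.29, and neither passed (limma adjusted p = 0.515 and 0.551). These points share their arrays, and the profile includes the difference between the groups.

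Costimulatory genes, which accompany class II on antigen-presenting cells, were also measured. Of 7 listed genes 6 were tested, 0 passed and the median log2 change was 0.13. Icosl, a ligand for a T cell costimulatory receptor, had 0.45 ± 0.21, Cd274, which encodes PD-L1, 0.35 ± 0.43, the adhesion molecule gene Icam1 0.20 ± 0.22 and Cd40 -0.17 ± 0.13 (SE, n = 3 and 3). Pdcd1lg2 was not well above background on any array, and Cd86 was on 1 knockout and 2 wild-type arrays.

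Among 11 markers of stroma and endothelium, 8 were tested and none passed; Myh11, a smooth muscle myosin gene, had -0.47 ± 0.12 (-0.19 and -0.18 on its other probes), Col1a2, a collagen gene, 0.55 ± 0.37, Col3a1 0.31 ± 0.37 and Pecam1 -0.18 ± 0.20 (SE, n = 3 and 3). Pdgfra, Cdh5 and Kdr were not well above background on any array.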
